A study of Mus musculus with 6 samples.

Results

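Ehd1, Rab11fip3, Acp2 and Hyal2 are mouse genes of the endocytic recycling pathway and of the lysosome whose transcript isoforms changed in use when duodenal crypt organoids were exposed to BMP2. Members were the isoforms of these 4 genes in the authors' deposited table of isoform changes, which gave 8 isoforms of the 302 listed, out of 202 genes. The genes were chosen by their presence in this table, that is, by the authors' usage differences and q-values, so these values are given as a description with no test of their own. Every one of the 302 isoforms, 100%, has a q-value under 0.05 and an absolute usage difference over 0.1, so that all 8 member isoforms pass says nothing about these genes. A q-value under 0.01 is found for 6 of the 8 and for 73.5% of all listed isoforms. A usage difference over 0.2 is found for 6 of the 8 and for 50.7% of all. The latter 6 include 2 isoforms of Acp2 with identical values, each at a difference of 20.2 percentage points.

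Crypt organoids are self-organising cultures of small intestinal epithelium grown from the stem cell zone of the mucosa. All 6 libraries came from wild-type C57BL/6 organoids of the duodenum. In 3 of them BMP2 was given at 100 ng/ml on day 6 of culture, and in the other 3 vehicle was given, each for 24 h before bulk RNA sequencing. BMP2, a bone morphogenetic protein, is a secreted signal of a pathway that opposes crypt identity in the intestine. The labels do not say whether the 3 libraries of a condition are separate cultures or animals, so the q-values compare the conditions against a spread among these 6 samples that may be technical. Because the values are the authors' means per condition, none has a replicate error, and sequencing depth is unknown. None of 44 marker genes of intestinal epithelial, mesenchymal, immune and endothelial cells is in the table, so the labelled tissue was not checked here. In bulk RNA, fewer cells of a type and less RNA per cell cannot be told apart.

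Endocytosed membrane proteins are either returned to the cell surface through recycling endosomes or passed on to lysosomes for degradation. Ehd1 encodes an ATPase of the EHD family that shapes membrane tubules of the recycling compartment, and Rab11fip3 encodes an effector that binds the GTPase Rab11 through a domain at its C-terminal end and links recycling endosomes to motors and to the division furrow. Acp2 encodes lysosomal acid phosphatase, which reaches the lysosome as a membrane-anchored precursor. Hyal2 encodes a hyaluronidase, first described as lysosomal, that is held at the cell surface by a lipid anchor and cleaves the matrix polysaccharide hyaluronan. In polarised gut epithelium, recycling through Rab11 endosomes supplies the apical membrane.

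The sequences that set these isoforms apart were read from GENCODE M21 transcripts and from the RefSeq promoter table, both on GRCm38, whereas the submitters' processing notes name mm39. All positions printed are 1-based, on GRCm38, without conversion. In Rab11fip3 (chromosome 17, 25989036 to 26069555, minus strand) the listed isoforms begin at different first exons, 47685 bases apart. The sequence before each start is shown because the isoforms that changed in use begin at different starts, with capitals marking CG dinucleotides. The upstream stretch, chr17:26069556-26069768, ends 38 bases before the RefSeq start, ahead of all annotated transcripts there, and the downstream stretch, chr17:26021861-26022110, ends at the base before the start of Rab11fip3-201, inside an intron of the long isoform (RefSeq, GRCm38.p6, minus strand, written 5′ to 3′).
Rab11fip3 upstream start: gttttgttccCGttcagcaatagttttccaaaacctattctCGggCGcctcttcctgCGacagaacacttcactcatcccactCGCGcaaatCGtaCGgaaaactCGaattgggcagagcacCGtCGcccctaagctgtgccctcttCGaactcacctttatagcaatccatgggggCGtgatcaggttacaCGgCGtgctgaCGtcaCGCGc
Rab11fip3 downstream start: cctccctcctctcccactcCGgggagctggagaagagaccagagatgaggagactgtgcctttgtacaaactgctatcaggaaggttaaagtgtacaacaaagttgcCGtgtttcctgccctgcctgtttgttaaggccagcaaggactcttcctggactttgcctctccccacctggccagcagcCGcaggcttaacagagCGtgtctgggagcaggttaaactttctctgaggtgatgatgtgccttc

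The upstream stretch holds 18 CG dinucleotides in 213 bases and the downstream stretch 4 in 250 bases, at nearly the same share of G and C, 54.0% in each. In the full RefSeq windows of 250 bases before to 50 bases after the start, the upstream start has 30 CG dinucleotides, more than 88.3% of 32851 mouse promoter windows, and the downstream start has 5, more than 38.0% of them. The windows of Acp2 and Hyal2 hold 19 and 18. The Hyal2 window, chr9:107568913-107569212, covers the annotated start of Hyal2-201 at 107569117. The start of Hyal2-207 at 107567945 lies outside it, so the sequence before that start was not searched. A window was matched for 3 of the 4 genes. The motif CACGTG, the core of the element bound by lysosomal gene regulators, is in none of the 4 windows and in 7.15% of all windows. GGCGCC, a motif known to be bound by BMP-activated SMAD proteins, is in the upstream Rab11fip3 window alone among the 4 and in 11.9% of all windows. Both motifs are palindromes, so a search of either strand covers both. A match is a description of the letters and not a binding site.

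A pair of coding stretches also separates the Rab11fip3 isoforms (GENCODE M21, GRCm38, minus strand, 5′ to 3′). The first is the 135-base exon at chr17:26011997-26012131, which Rab11fip3-203 contains and Rab11fip3-201 skips. The second is the start of the coding sequence of Rab11fip3-201 at chr17:26016069-26016128, with its start codon in capitals, a stretch that lies inside the coding sequence of Rab11fip3-203.
Rab11fip3-203 exon: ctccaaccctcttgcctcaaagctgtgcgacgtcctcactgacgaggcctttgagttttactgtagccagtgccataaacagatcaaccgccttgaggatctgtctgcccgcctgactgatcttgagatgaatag
Rab11fip3-201 coding start: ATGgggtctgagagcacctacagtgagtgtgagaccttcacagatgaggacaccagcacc

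**Figure D1:**
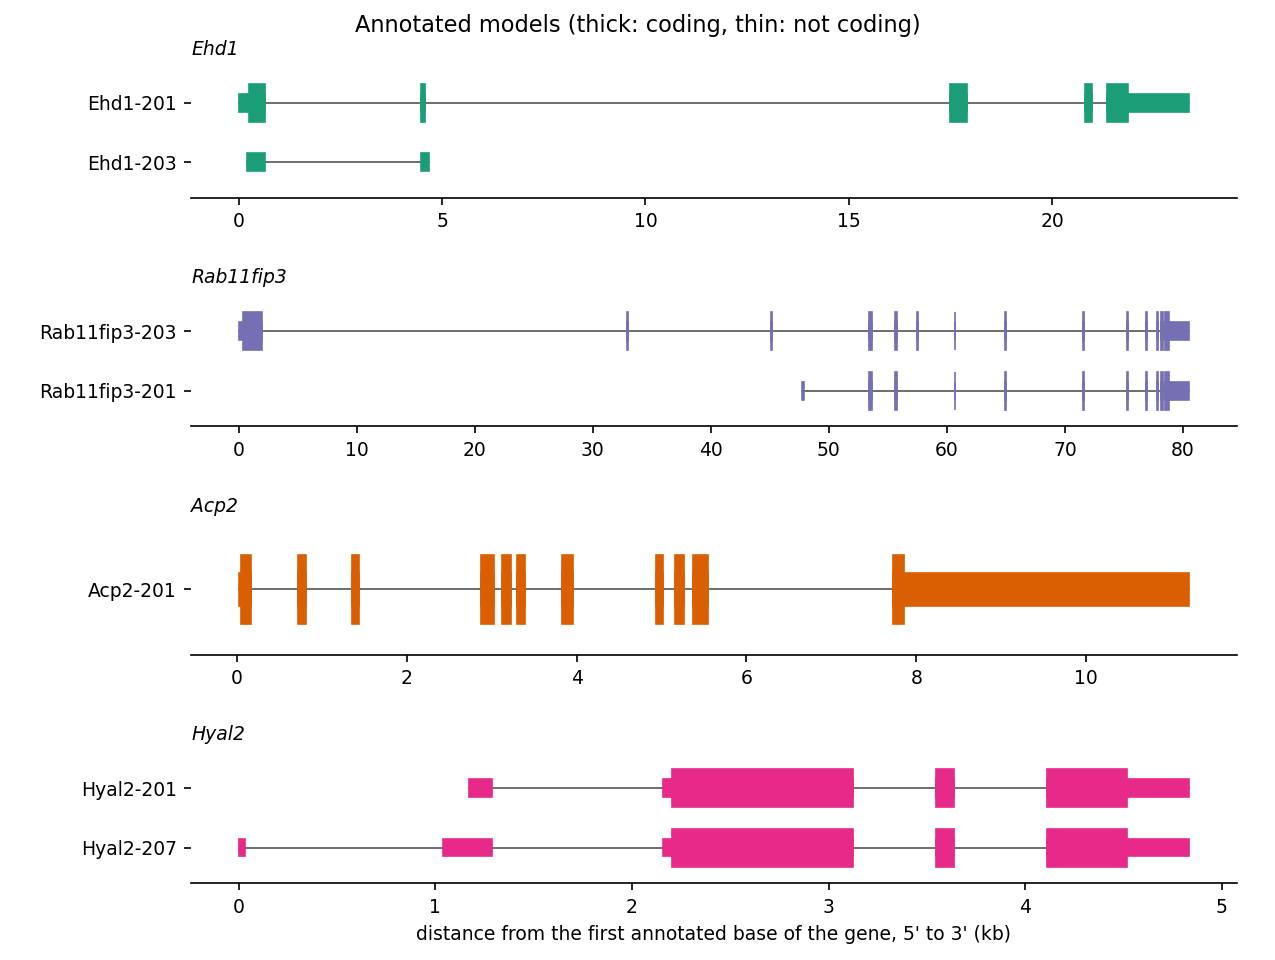
Annotated exon models of the listed isoforms that matched GENCODE M21, with Ehd1-201, which is not listed, drawn for reference. The x axis of each panel is the distance in kb from the first annotated base of the gene, thick boxes are coding and thin boxes are not; Rab11fip3-201 starts 47685 bases downstream of Rab11fip3-203, while Hyal2-201 and Hyal2-207 share their coding boxes and differ before them.

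Use of Rab11fip3 moved to the short isoform. Rab11fip3-201 made up 54.8% of the gene's transcripts in vehicle and 84.8% in BMP2, and Rab11fip3-203 made up 39.2% and 11.4%. In the authors' deposited table the q-values are 9.81e-07 for the gain and 3.01e-05 for the loss. Rab11fip3-201 was already the more used isoform in vehicle, so the leading isoform stayed the same and the balance between the isoforms shifted. Per 100 TPM of Rab11fip3-201 there were 70.9 TPM of Rab11fip3-203 in vehicle and 13.5 TPM in BMP2.

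The annotated coding sequences of these isoforms end at the same stop and differ at the start. Rab11fip3-203 has 15 exons and 3276 coding bases, of which 1596 lie in its first exon. Rab11fip3-201 has 12 exons, 11 of them identical to exons of Rab11fip3-203, and 1332 coding bases, 40.7% of the length of the longer one. Its start codon lies after 1809 coding bases of Rab11fip3-203, in the same reading frame. The isoform that gained use thus keeps, by annotation, the C-terminal end, which in this protein family binds Rab11, and lacks the N-terminal coding part and the 135-base exon printed above.

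Rab11fip3-201 had a mean of 4.67 TPM in vehicle against 18.3 TPM in BMP2, a ratio of 3.93. That of Rab11fip3-203 was 3.31 and 2.48 TPM, a ratio of 0.749. The lower share of the long isoform therefore came with a small difference in its own abundance and a large one in the short isoform. The level of the whole gene, computed by dividing the TPM of its listed isoforms together by their combined share, was 8.49 TPM in vehicle against 21.6 TPM in BMP2. The gene differed by 13.2 TPM, of which Rab11fip3-201 made up 13.7 TPM, Rab11fip3-203 -0.83 TPM and unlisted isoforms 0.313 TPM.

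The Rab11fip3 shares rest on how reads were divided between overlapping models. Of the 5348 stretches of 31 bases in Rab11fip3-203, 2306 are absent from Rab11fip3-201, but none is absent from all other annotated transcripts, since other annotated transcripts together cover them. Rab11fip3-201 has 42 such stretches of its own out of 3241. Exons of both isoforms share 515 bases, 15.7% of Rab11fip3-201 and 9.57% of Rab11fip3-203, with 1700022N22Rik on the opposite strand, so both levels are uncertain where strand was not used in the quantification, a setting that no label or header states.

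In Ehd1 a short annotated model that was listed at 0 in vehicle gained use in BMP2. Ehd1-203 (gene on chromosome 19, 6276725 to 6300096, plus strand) made up 0% of the gene's transcripts in vehicle and 11.4% in BMP2. Its mean was listed at 0 TPM in vehicle against 6.71 TPM in BMP2, and no fold is given against a listed 0. The q-value in the authors' deposited table is 3.09e-19, which ranks 14 in the table and is the lowest q of the 8 isoforms, while its usage difference of 11.4 percentage points in that table is the smallest of the 8. Only 4 of the 302 listed isoforms have a usage of 0 in vehicle.

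Ehd1-203 is annotated as retaining an intron and has no annotated coding sequence. It is a model of 629 bases in 2 exons, against 3353 bases in 5 exons and 1602 coding bases in the full-length Ehd1-201, which the table does not list. Its last exon runs through exon 2 of Ehd1-201 (6281218 to 6281315) and on for 77 bases into an intron of 12898 bases. The end of the model is shown because these 77 bases are what tells it from Ehd1-201. The last 30 bases of exon 2 are in lower case and the intron stretch is in capitals (chr19:6281286-6281392, plus strand, GENCODE M21, GRCm38).
Ehd1-203 end: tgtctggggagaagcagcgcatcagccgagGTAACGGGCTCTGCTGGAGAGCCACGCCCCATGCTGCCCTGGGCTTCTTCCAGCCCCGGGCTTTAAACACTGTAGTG

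The intron stretch begins with GT, the letters of a 5′ splice site, unspliced in this model. Reading from the Ehd1-201 start codon, 579 bases are left to the end of Ehd1-203, with 0 stop codons in frame. Of its 599 stretches of 31 bases, 75 are found in no other annotated transcript, and the other 524 are shared with Ehd1-201 or further models. No exon of another gene overlaps it. Whether the reads assigned to Ehd1-203 came from a truncated transcript or from unspliced Ehd1 RNA was not tested. Of the 27 listed isoforms annotated as retaining an intron, 19 were higher in usage in BMP2 and 8 lower.

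The remaining 88.6% of Ehd1 transcripts in BMP2, and all of them in vehicle, belong to isoforms outside the table. Dividing 6.71 TPM by the share of 11.4% gives a gene level of 58.9 TPM in BMP2 (58.6 to 59.1 TPM within the rounding of the share). This range covers rounding only and not the spread among libraries. No level can be computed in vehicle, where the only listed isoform is at 0, so whether the level of Ehd1 differed was not analysed here.

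**Figure D2:**
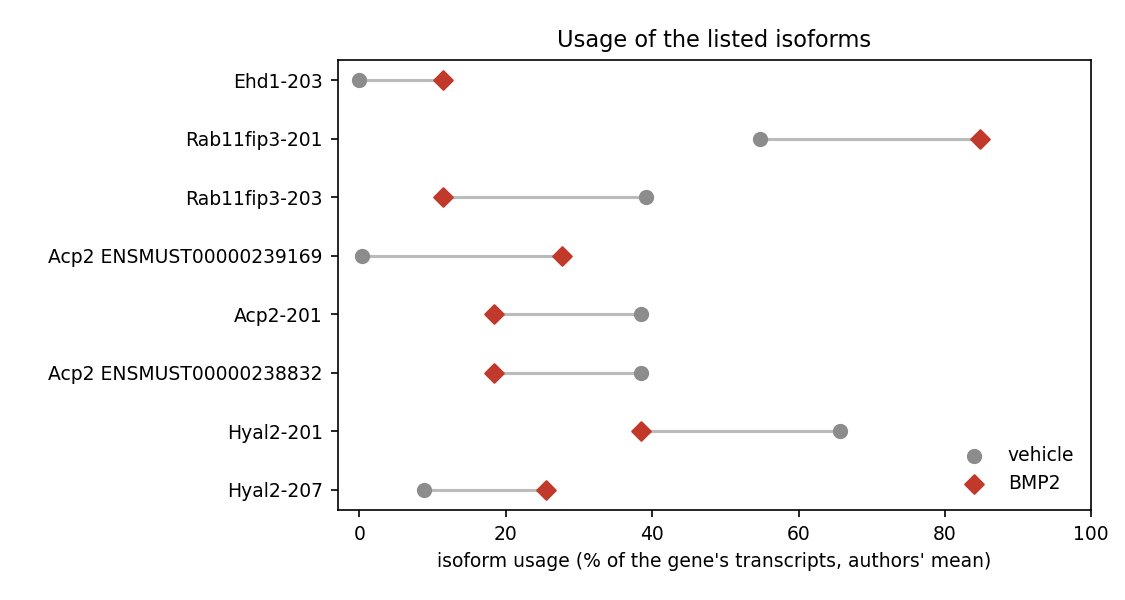
Usage of the 8 listed isoforms, as the authors' mean share of the gene's transcripts in percent, in vehicle (circles) and BMP2 (diamonds). 4 isoforms were higher and 4 lower in BMP2, and Acp2-201 and ENSMUST00000238832 coincide.

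Acp2 gained an isoform that was nearly absent in vehicle. ENSMUST00000239169, one of 3 listed isoforms of Acp2 (chromosome 2, 91202885 to 91214098, plus strand), made up 0.4% of the gene's transcripts in vehicle and 27.7% in BMP2, with q = 0.00195 in the authors' deposited table. It stood at a mean of 0.0288 TPM in vehicle against 3.10 TPM in BMP2. It was listed under 0.5% of its gene in vehicle, as were 7 of the 302 isoforms, Ehd1-203 among them.

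The isoforms that lost use have the same values to the last deposited digit. Acp2-201 and ENSMUST00000238832 each made up 38.5% of the gene's transcripts in vehicle and 18.4% in BMP2, and each had a mean of 2.52 TPM in vehicle against 2.10 TPM in BMP2. Their q-value in the authors' deposited table is 0.0365 for both, the highest of the 8 isoforms. No other isoforms among the 302 share their TPM values in both conditions. Whether these isoforms were told apart by any read was not tested, and they are better read as a single value, which fell from 77.0% to 36.8% of the gene, with 5.04 TPM in vehicle against 4.21 TPM in BMP2.

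Acp2-201 encodes the full-length phosphatase, with 11 exons, 1269 coding bases and a last exon of 3492 bases. The other listed Acp2 isoforms did not match GENCODE M21 by identifier, so their exons and coding sequences are not described. Exons of Acp2-201 share 652 bases, 14.0%, with Ddb2 on the opposite strand, so its level is uncertain for the same reason as that of Rab11fip3. Unlisted isoforms made up 22.6% of Acp2 in vehicle and 35.5% in BMP2. The level of the whole gene was 6.55 TPM in vehicle against 11.3 TPM in BMP2. ENSMUST00000239169 made up 3.07 TPM of the difference of 4.78 TPM, unlisted isoforms 2.54 TPM, and the pair with equal values was lower by 0.415 TPM each.

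The listed isoforms of Hyal2 differ in their first exons and share their annotated coding sequence. Hyal2-201 (gene on chromosome 9, 107567945 to 107572779, plus strand) made up 65.7% of the gene's transcripts in vehicle and 38.5% in BMP2, with q = 3.51e-05 in the authors' deposited table. Hyal2-207 made up 8.8% and 25.5%, with q = 0.0075 in the authors' deposited table. Hyal2-201 remained ahead of Hyal2-207 in BMP2, and per 100 TPM of Hyal2-201 there were 13.1 TPM of Hyal2-207 in vehicle and 65.9 TPM in BMP2. Unlisted isoforms, which were not examined, made up 25.5% of the gene in vehicle and 36.0% in BMP2, so part of the share that Hyal2-201 lost lay outside Hyal2-207.

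Hyal2-207 starts 1172 bases upstream of Hyal2-201, with a first exon of 32 bases followed by an intron of 1006 bases. Their annotated coding sequences are identical, with 1419 bases each. The annotated stretch before the start codon is 329 bases in Hyal2-207 and 163 bases in Hyal2-201, so these isoforms differ in the 5′ UTR by 166 bases. Hyal2-207 has 167 stretches of 31 bases found in no other annotated transcript, out of 2032. Hyal2-201 has 0 out of 1863 and is contained in Hyal2-207 at this length, so its value depends on how reads were divided. No exon of another gene overlaps either isoform.

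Hyal2-201 lost share while its own mean abundance was higher in BMP2. Its mean was 18.3 TPM in vehicle against 27.8 TPM in BMP2, and that of Hyal2-207 was 2.40 and 18.3 TPM, a ratio of 7.64. Of the 166 listed isoforms whose usage fell, 33 had a higher mean TPM in BMP2, or 19.9%, and Hyal2-201 is the only one of the 4 falling member isoforms among them. Hyal2 was also the most abundant of the 3 genes with a level in both conditions, with a level of 27.8 TPM in vehicle against 72.1 TPM in BMP2. Hyal2-207 made up 35.9% of that difference of 44.4 TPM, Hyal2-201 21.5% and unlisted isoforms 42.6%.

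**Figure D3:**
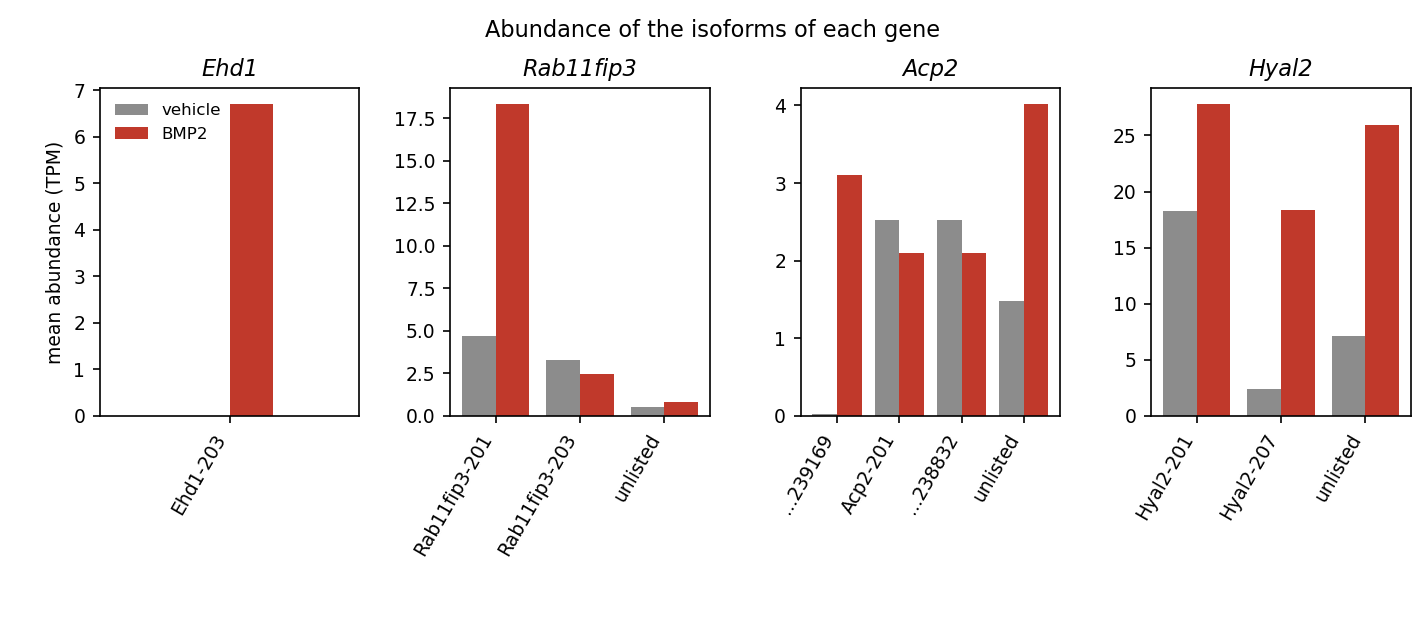
Mean abundance in TPM (authors' means per condition, linear axes that differ between panels) of each listed isoform in vehicle (grey) and BMP2 (red), with the abundance implied for isoforms outside the table. Rab11fip3-201 and both Hyal2 isoforms were higher in BMP2, Rab11fip3-203 and the equal Acp2 pair were slightly lower, and Ehd1-203 was listed at 0 in vehicle.

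Across the 4 genes, usage was higher in BMP2 for 4 isoforms and lower for 4, where 45.0% of all listed isoforms were higher and 55.0% lower. With the equal Acp2 pair counted once, 3 were lower. Rab11fip3, Acp2 and Hyal2 have listed isoforms that moved in opposite directions, which the fixed sum of shares favours. All 90 genes with several listed isoforms, of the 202 in the table, have such changes, so this says nothing about these genes. The others have a single listed isoform, as Ehd1 does, in which opposite changes cannot be seen. Absolute differences ran from 11.4 to 29.9 percentage points in the authors' deposited table, around the median of 20.2 of all listed isoforms. Mean TPM over both conditions ran from 1.56 for ENSMUST00000239169 to 23.0 for Hyal2-201, where the median of the listed isoforms is 5.70. Mean TPM was higher in BMP2 for 5 of the 8 isoforms, beside 46.0% of all listed ones.

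Implied gene levels were higher in BMP2 for all 3 genes that have one, by 2.55-fold for Rab11fip3, 1.73-fold for Acp2 and 2.60-fold for Hyal2. As log2 ratios these are 1.35, 0.79 and 1.38, and the rounding of the shares alone moves each by under 0.01. Rounding is not the full uncertainty. The most used isoform alone gave 1.344 for Rab11fip3, outside its rounding limits of 1.347 to 1.353. For Acp2 it gave 0.805, outside 0.785 to 0.797. Among 195 genes with a level the median log2 ratio was -0.12, and 47.2% were higher in BMP2. An over 2-fold higher level was found for 2 of the 3 genes, Rab11fip3 and Hyal2, against 11.3% of the 195. A higher log2 ratio than that of Hyal2 was found in 11 genes, than that of Rab11fip3 in 14 and than that of Acp2 in 36. These genes were chosen with their values known, no library values were used, and no test of the levels was made.

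**Figure D4:**
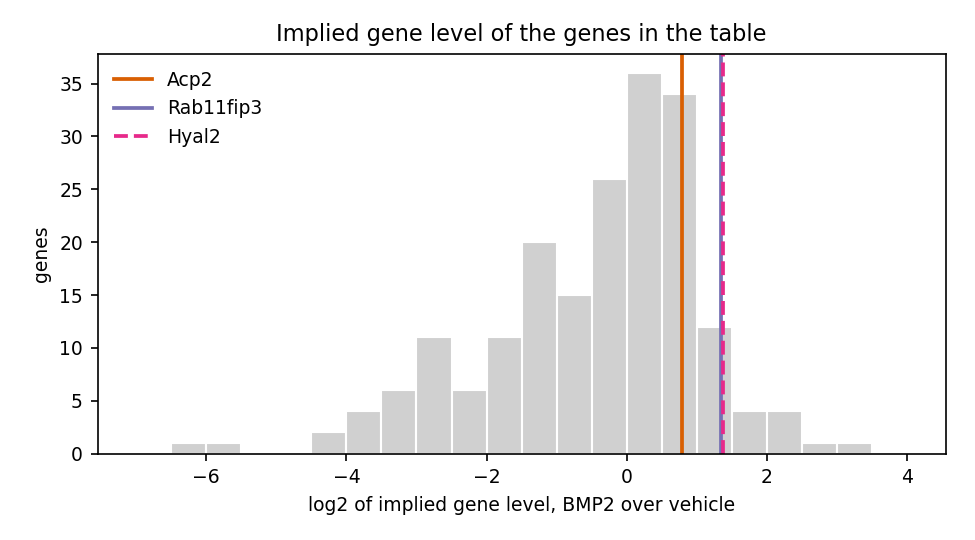
Number of genes by log2 ratio of implied gene level, BMP2 over vehicle, in bins of 0.5, for the 195 genes with a level in both conditions. Lines mark Acp2 at 0.79, Rab11fip3 at 1.35 and Hyal2 at 1.38 (dashed), to the right of the median of -0.12.

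The other genes of these pathways were looked up in 5 lists of 291 genes in all. Of the 291, 7 are in the table, among them the 4 members, which were chosen for being in it. The number of genes the authors tested is unknown, so no share over all genes can be set beside these counts. Whether they are many or few was not tested. The endocytic recycling list had 3 of 80 genes in the table, Ehd1, Rab11fip3 and Tbc1d14, with 2 isoforms higher and 2 lower in usage. The list of lysosomal enzymes, membrane proteins and transport receptors had 3 of 90, Acp2, Hyal2 and Tfeb, with 2 isoforms higher and 4 lower. The equal Acp2 pair counts as 2 of these 4. The list of endosome sorting, fusion and coat genes had 1 of 87, Plekhm1, and the hyaluronan turnover list had 1 of 15, Hyal2. None of 22 subunit and accessory genes of the vacuolar proton pump, which acidifies endosomes and lysosomes, was in the table, so their isoform use was not analysed here.

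The 3 genes from these lists that are not members each have a single listed isoform, annotated as protein-coding, and in each its usage fell, as did that of 55.0% of all listed isoforms. Tbc1d14-221, of a RAB GTPase-activating family gene that acts on Rab11 recycling endosomes and autophagy, went from 20.8% to 2.4% (authors' deposited table, q = 0.0196). Tfeb-212, of the transcription factor that controls lysosomal genes, went from 39.7% to 20.5% (authors' deposited table, q = 0.0142). Plekhm1-201, of an adaptor for fusion of late endosomes with lysosomes, went from 100% to 87.1% (authors' deposited table, q = 1.09e-05). The implied level of Tbc1d14 was 24.4 TPM in vehicle against 33.3 TPM in BMP2, that of Tfeb 5.33 against 7.90 TPM and that of Plekhm1 4.61 against 6.82 TPM, ratios of 1.36, 1.48 and 1.48. Each of the 3 levels was higher in BMP2 by less than 2-fold, as was that of the member gene Acp2. None of these levels was tested.

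Other listed isoforms came close to the member isoforms in their pair of shares. Likeness was taken as the distance between the shares in vehicle and BMP2, in percentage points, over these 2 condition means. Ehd1-203 was nearest to Isoc2b-204, at 2.20 points, an isoform that is likewise annotated as retaining an intron and went from 0% to 13.6%. ENSMUST00000239169 of Acp2 was nearest to Nln-202 at 1.71 points, and the equal Acp2 pair to Clasrp-201 at 0.51 points. Rab11fip3-201 was nearest to Acss3-202 at 2.41 points and Rab11fip3-203 to Nfic-201 at 2.42 points. Hyal2-201 was nearest to Hsf1-205 at 1.40 points and Hyal2-207 to Xrn2-203 at 1.63 points. Abundance was not part of this measure. Isoc2b-204 was listed at 0 TPM in vehicle against 4.14 TPM in BMP2, and Nln-202 stood at 0.31 against 2.89 TPM, the same direction as Ehd1-203 and ENSMUST00000239169. Hsf1-205 stood at 12.2 TPM in vehicle against 2.91 TPM in BMP2, the opposite direction to Hyal2-201.

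**Figure D5:**
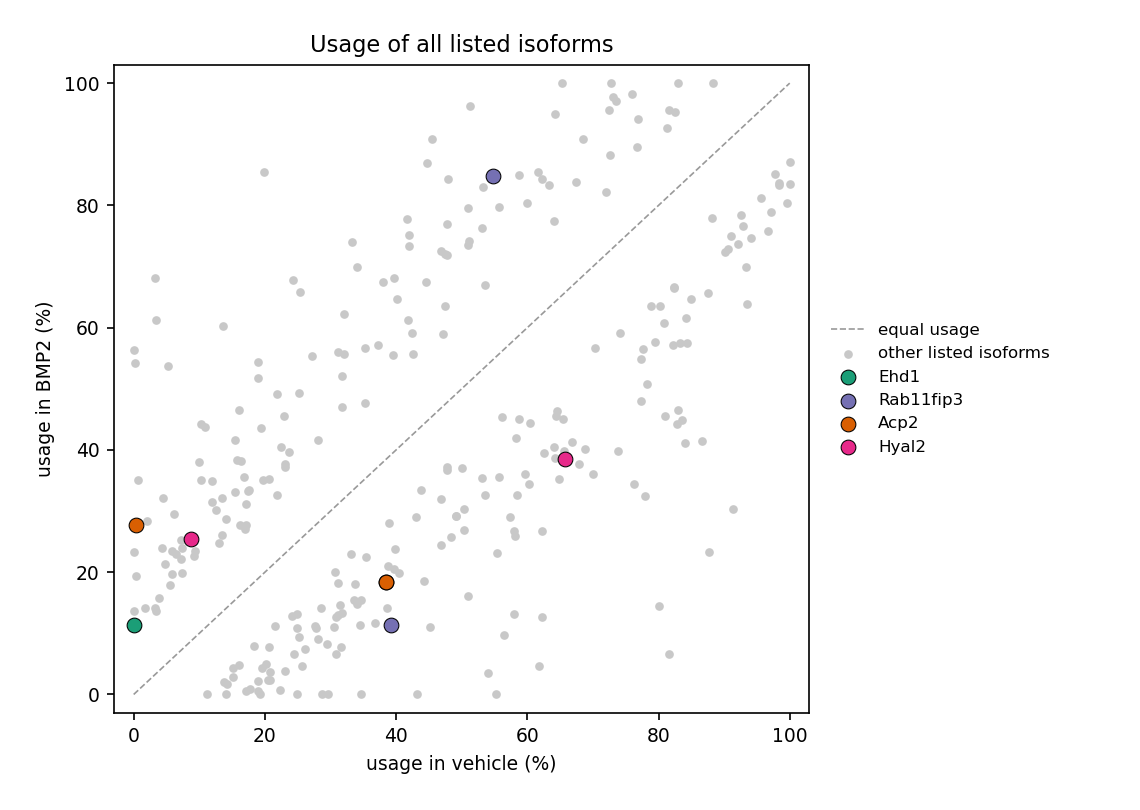
Usage of each of the 302 listed isoforms in vehicle (x axis, percent) and BMP2 (y axis, percent), with the isoforms of the 4 genes in colour and the dashed line at equal usage. The empty band around the line reflects the minimum difference of listed isoforms; Ehd1-203 and an Acp2 isoform lie at the left edge, and the equal Acp2 pair is 1 point.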

How the data were processed

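A single table of the authors' comparison of BMP2 with vehicle was used (3 libraries each). The tool kallisto 0.46.1 and the build mm39 are named, per the submitters' processing notes. The annotation release, filters, strand setting and the test behind the q-values are details not given in the sources used here. The deposited isoform fractions are the authors' means per condition, printed here as percent. The difference score, BMP2 minus vehicle, and the q-value are the authors' as well, per the file headers. The deposited TPM values are means per condition, and TPM keeps no depth, so no interval could be given. Ranks run to 380, and 78 are not among the 302 isoforms analysed here.

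The members and lists were chosen with earlier results of these data known. Named genes are the members, list genes in the table, and for each member isoform the one nearest in its pair of fractions, predicted models passed over. Gene level is summed TPM over summed fraction, and its accuracy was not tested. Isoforms were matched by stable identifier to GENCODE M21 (6 of 8 members), whose exons may differ slightly from those the authors used. Stretches of 31 bases were compared over all GENCODE M21 transcripts on both strands. Scripts ran in Python 3.11.15 with numpy 2.4.6. The alternatives tried were a q under 0.01, differences over 0.2, a mean of 5 TPM, a gene level of 5 TPM, the level from 1 isoform and a pseudocount of 1 TPM.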

Additional observations from a re-analysis of the deposited data

How the results depend on the processing

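Of the 8 member isoforms, 6 have a q under 0.01 (4 higher and 2 lower in usage), where 73.5% of all listed isoforms do. A usage difference over 0.2 is found for 6 (2 higher and 4 lower), where 50.7% of all have one. The equal Acp2 pair, at a difference of 20.2 percentage points, counts as 2 of those 4. At a mean of 5 TPM or more 3 are left (2 higher, 1 lower), Rab11fip3-201 and both Hyal2 isoforms, beside 55.0% of all. A gene level of 5 TPM in both conditions leaves 7, without Ehd1-203, since no level of Ehd1 can be computed in vehicle, and counting the equal Acp2 pair once, an alternative chosen after seeing the data, also leaves 7. The log2 ratio of gene level from the most used isoform alone was 1.34 for Rab11fip3 and 0.81 for Acp2, and with a pseudocount of 1 TPM it was 1.25 for Rab11fip3, 0.71 for Acp2 and 1.35 for Hyal2. No ratio changed direction under these settings. No paired analysis was possible because the table gives means per condition, and for the same reason no library could be left out. A gene expression column was not used, since the table has none. The precision of each share depends on depth, which is unknown.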

Other observations

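Further genes of endosomes and lysosomes in the table fall outside the lists and were chosen after their values were seen. Kif16b, a kinesin of early endosomes, had Kif16b-201 fall from 44.2% to 18.5% of its transcripts and Kif16b-204 rise from 20.7% to 35.2%, with q-values of 1.25e-12 and 0.00929 in the authors' deposited table. Unlisted Kif16b isoforms made up 35.1% in vehicle and 46.3% in BMP2. Ubap1, a subunit of the ESCRT-I sorting complex, had Ubap1-201 fall from 58.3% to 42.0% and Ubap1-202 rise from 12.5% to 30.1%, with q-values of 0.00702 and 0.00371 in the authors' deposited table. As with Hyal2-201, Ubap1-201 lost share while its mean was 15.6 TPM in vehicle against 18.9 TPM in BMP2. Ap5z1-201, of an adaptor complex of late endosomes, went from 55.7% to 35.5%, and Slc36a1-203, of a lysosomal amino acid transporter, from 98.3% to 83.7%, with q-values of 0.00225 and 0.00813 in the authors' deposited table. The implied level of Kif16b was 11.3 TPM in vehicle against 22.3 TPM in BMP2, that of Ubap1 26.7 against 45.0 TPM, that of Ap5z1 4.44 against 8.36 TPM and that of Slc36a1 3.37 against 5.68 TPM. Levels lay the other way in Gprasp1, a gene for sorting of receptors to lysosomes, at 9.58 and 6.79 TPM, and in the Rab regulator gene Rabgap1l, at 20.7 and 18.1 TPM. None of these levels was tested. As with Hyal2-201 and Ubap1-201, the means of Plekhm1-201, Ap5z1-201 and Slc36a1-203 were higher in BMP2 while usage fell. Kif16b-201, Tbc1d14-221, Tfeb-212, Gprasp1-206 and Rabgap1l-209 fell in usage with lower means in BMP2.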
